A study of Homo sapiens with 12 samples.

Results

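The transcripts of 10 chemokine, cytokine, adhesion and feedback genes linked to NF-kB signalling were followed in HepaRG cells. This is a hepatoma line of human origin that differentiates in culture into cells resembling hepatocytes and bile duct epithelium. The genes were chosen by name, with earlier results of these data known: the chemokines CCL2, CXCL1, CXCL2, CXCL8 and CXCL13, the cytokine IL6, the adhesion receptor ICAM1, and the feedback inhibitors NFKBIA, TNFAIP3 and SOCS3. CXCL13 was chosen for its pattern under CITCO in these data, so every CXCL13 value from a comparison that uses CITCO libraries is a description with no test. They are 10 of 15822 loci in the deposited expression table, and all 10 were among the 15792 loci that reached a level of at least 1 in at least 2 libraries and were tested.

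The 12 RNA sequencing libraries form 6 groups of 2. Wild-type (WT) HepaRG cells and HepaRG cells in which CAR, the constitutive androstane receptor, was knocked out (KO) each received the solvent DMSO, phenobarbital (PB) or CITCO. PB is a barbiturate that activates CAR indirectly, and CITCO is a synthetic ligand of human CAR. The sources used here do not give doses, exposure times, the edit, the number of KO clones or the strandedness of the libraries. No inflammatory stimulus is named for any group. NR1I3, the gene of CAR, was still transcribed in KO cells, at 9.63 to 16.2 CPM against 9.33 to 15.5 CPM in WT libraries, and without the position of the edit its level checks nothing about the genotype. Nothing in the labels says whether duplicates are separate cultures. The p-values therefore measure the spread between libraries only, and that spread may be technical.

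NF-kB dimers are held in the cytoplasm by inhibitors such as IκBα, the product of NFKBIA. Signals from receptors for tumour necrosis factor, interleukin 1 or bacterial products destroy IκBα, and the freed dimers enter the nucleus and bind κB elements. Among the genes they induce are chemokines, IL6, ICAM1, and the genes of their own inhibitors, IκBα and the ubiquitin-editing enzyme A20 (TNFAIP3). IL6 signals through STAT3 and induces SOCS3, which blocks the receptor complex. In liver these signals drive the acute phase response and recruit leukocytes.

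Promoter sequence was examined for the κB element that this family shares. RefSeq promoters (GRCh38.p14) were matched for 9 of the 10 genes, CCL2 being the exception. The letters GGANNTTCC, 9 letters long and searched on both strands in the 250 bases before each start, occurred in 7 of the 9 genes and in 3.84% of 35116 promoters of all genes. Each of the 7 windows below holds 100 bases of the gene's own strand with the κB match in capitals, and they are shown because the letters are what these genes share in sequence.
CXCL1: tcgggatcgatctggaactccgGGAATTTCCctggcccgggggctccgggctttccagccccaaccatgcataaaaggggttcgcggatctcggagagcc
CXCL2: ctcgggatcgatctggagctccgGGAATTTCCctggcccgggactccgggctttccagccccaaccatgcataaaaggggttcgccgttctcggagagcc
CXCL8: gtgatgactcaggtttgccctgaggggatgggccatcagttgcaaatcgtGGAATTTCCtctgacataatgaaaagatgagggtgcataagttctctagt
IL6: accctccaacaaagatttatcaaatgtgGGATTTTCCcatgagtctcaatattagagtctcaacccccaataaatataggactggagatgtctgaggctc
ICAM1: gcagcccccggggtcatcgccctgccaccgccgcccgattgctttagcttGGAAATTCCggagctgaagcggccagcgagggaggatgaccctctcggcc
NFKBIA: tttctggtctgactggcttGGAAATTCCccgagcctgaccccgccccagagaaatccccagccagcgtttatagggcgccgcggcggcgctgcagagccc
TNFAIP3: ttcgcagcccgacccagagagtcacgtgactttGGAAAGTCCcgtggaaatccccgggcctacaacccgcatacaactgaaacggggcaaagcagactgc

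The windows lie at chr4:73869293-73869392 on the plus strand for CXCL1, chr4:74099196-74099295 on the minus strand for CXCL2 and chr4:73740428-73740527 on the plus strand for CXCL8. Those of the other genes lie at chr7:22727100-22727199 (plus) for IL6, chr19:10270884-10270983 (plus) for ICAM1, chr14:35404750-35404849 (minus) for NFKBIA and chr6:137867159-137867258 (plus) for TNFAIP3. All are upstream of the annotated transcription start. The match in CXCL1, CXCL2 and CXCL8 was the same 9 letters, GGAATTTCC, beginning 78, 77 and 91 bases before the start. The element of CXCL1 and CXCL2 lay in an unbroken run of 24 bases that both windows hold, and another run of 42 shared bases lay nearer to the start. In IL6 (GGATTTTCC) the match began 72 bases before the start, in TNFAIP3 (GGAAAGTCC, a match on the other strand) 67, and in ICAM1 (GGAAATTCC) 186. NFKBIA, the inhibitor gene, had a pair of matches, GGACTTTCC at 242 and GGAAATTCC at 81.

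CXCL13 and SOCS3, which have 2 annotated starts each, held no such letters in these windows. The start of CXCL13 that lies nearer to the 3′ end is preceded by this sequence, shown because CXCL13 has the highest level among the 10 genes.
CXCL13: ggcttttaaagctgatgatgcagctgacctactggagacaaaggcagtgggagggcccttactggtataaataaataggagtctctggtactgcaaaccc
It lies at chr4:77605720-77605819 on the plus strand. The letters TTCNNNGAA, a STAT element searched in the same way, were present in ICAM1 alone among the 9 genes (TTCCGGGAA, 75 bases before the start) and in 6.57% of all promoters. A direct repeat of AGNTCA with a spacer of 4 bases, the kind of element that CAR binds with its partner RXR, was present in 0.0940% of all promoters and in none of the 9. A match is a description of letters and not a binding site.

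Levels are given as normalized CPM (counts per 1e6 reads with the authors' normalization factors). The libraries held 49.3 to 66.5 times 1e6 reads over the listed loci. Differences are of log2(CPM + 0.5) from limma fitted to all 12 libraries, with Benjamini-Hochberg adjustment over all 15792 loci and a call at an adjusted p under 0.05. Fold changes on this scale understate the change of low genes such as IL6.

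Per kilobase of exon, the 10 genes under DMSO in WT cells spanned from 278 ± 20.5 CPM per kb for CXCL13 to 0.0469 ± 0.00534 for IL6 (SD, n = 2). CXCL13 encodes the chemokine that attracts B cells to follicles through CXCR5. NFKBIA followed at 27.3 ± 0.190 CPM per kb, then CXCL2 at 19.8 ± 1.55 and ICAM1 at 10.8 ± 0.134. SOCS3 (4.996 ± 0.0617), CXCL8 (4.48 ± 0.101) and TNFAIP3 (4.10 ± 0.520) were close, and the ranges of CXCL8 and TNFAIP3 overlapped. CCL2 (2.97 ± 0.260) and CXCL1 (2.13 ± 0.308) came next. In KO cells under DMSO the first and second places were again CXCL13 (57.7 ± 0.655) and NFKBIA (24.1 ± 0.158), and IL6 was again last (0.676 ± 0.142).

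**Figure D1:**
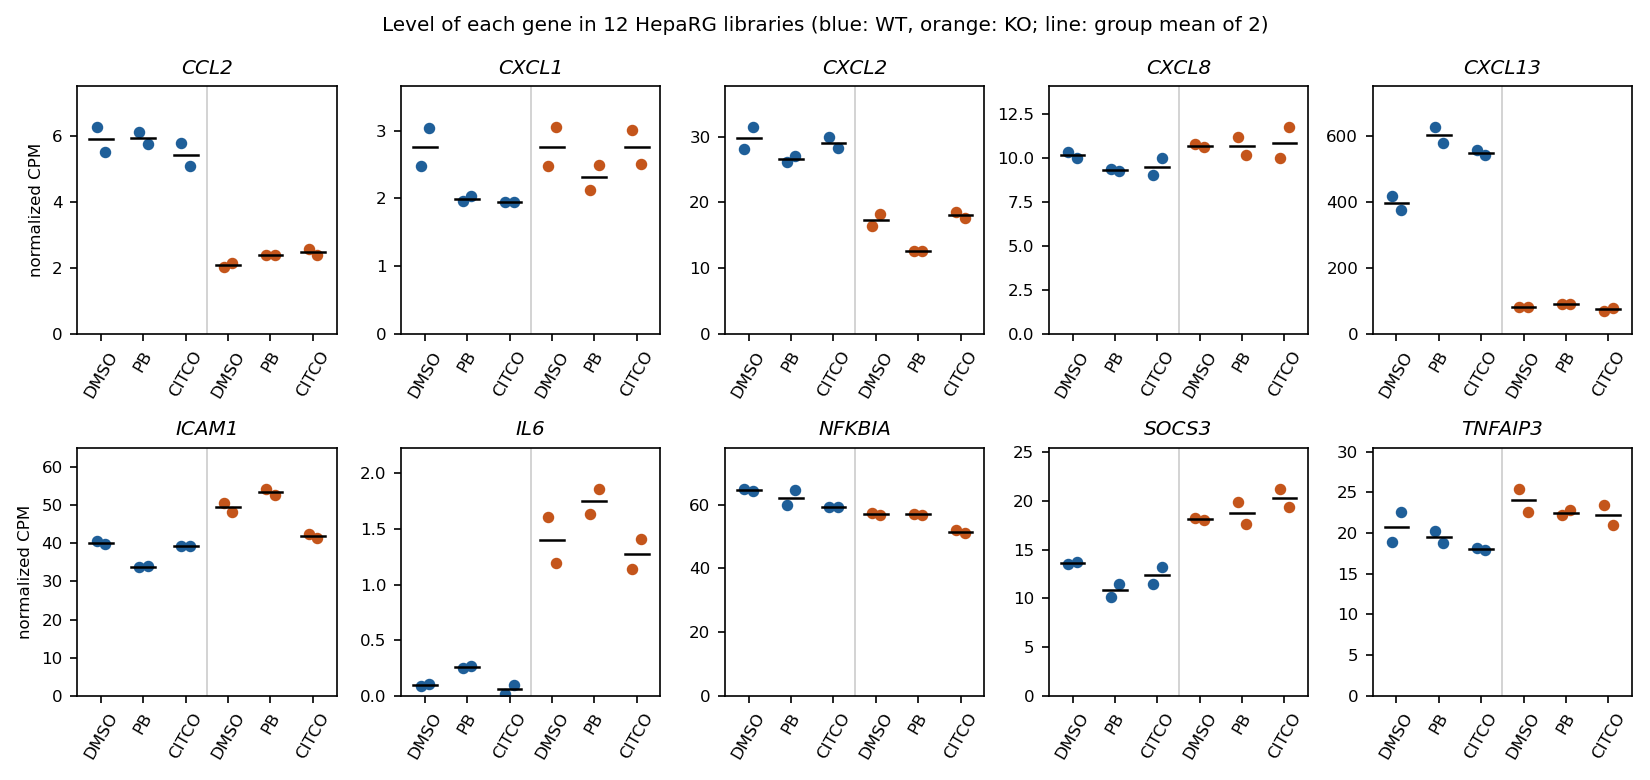
Normalized CPM (vertical axes, from 0, 1 scale per gene) of the 10 genes in each of the 12 libraries, by treatment (horizontal axes), with WT libraries in blue, KO libraries in orange and a line at the mean of each group of 2. The 6 WT and 6 KO libraries do not overlap for CCL2, CXCL2, CXCL13, ICAM1, IL6, NFKBIA and SOCS3, and overlap for CXCL1, CXCL8 and TNFAIP3.

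For 6 of the 9 genes other than CXCL13 no KO library overlapped any WT library. Of all tested loci 49.4% had no overlap of that kind, so such separation was common throughout the table. IL6, 1 of the 6, passed the filter on low values through its KO libraries alone. CXCL13, given as a description, had no overlap either. The ratio of the highest to the lowest of the 6 group means was 29.8 for IL6, 8.01 for CXCL13, 2.85 for CCL2 and 2.36 for CXCL2. The IL6 value was 18.0 without WT CITCO library 1, which holds 1 read, and 96.8 without WT CITCO library 2. It was 1.87 for SOCS3, 1.58 for ICAM1, 1.42 for CXCL1, 1.33 for TNFAIP3, 1.25 for NFKBIA and 1.17 for CXCL8. The feedback gene NFKBIA and the chemokine CXCL8 had the narrowest ranges of the 10. In bulk RNA, fewer cells of a type and less RNA per cell cannot be told apart.

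The first question was how KO and WT cells differed in the level of each gene when no drug was given. The absence of CAR cannot be told apart here from other differences between the KO and WT cells, such as those of a clone. Under DMSO, KO cells had higher ICAM1, IL6 and SOCS3, 3 of 10 genes, and lower CCL2, CXCL2, CXCL13 and NFKBIA, 4 of 10. IL6 is counted although it passed the filter on low values through its KO libraries alone. CXCL13 is counted although its DMSO libraries are shared with the CITCO pattern for which it was chosen. Of all loci tested, 28.3% were higher and 29.4% lower, so calls were common throughout the table. The median difference of the 10 genes was 0.03, against -0.00 over all loci. The balance of directions depends on the scaling. Scaling each library to its own total moved the median of all loci by 0.25 under DMSO and by 0.24 under PB and CITCO. With total scaling the split under DMSO became 5 higher and 3 lower among the 10 genes. Of all calls 78.2% were then higher, compared with 49.0% in the deposited scaling. ICAM1, IL6 and SOCS3 stayed higher and CCL2, CXCL2 and CXCL13 lower, while NFKBIA turned sign and was no longer called.

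Among the ligands, CXCL13 showed the largest decrease. Its WT DMSO libraries held 418 and 377 CPM and its KO DMSO libraries 82.0 and 83.3 CPM. Every KO library, between 71.5 and 91.4 CPM, was below every WT library, the lowest of which had 377. KO cells had 4.81-fold less CXCL13 than WT cells under DMSO (log2 -2.26, SE 0.05, adjusted p = 2.30e-16). The DMSO libraries of this test are shared with the CITCO pattern for which CXCL13 was chosen. Under PB the ratio of means was 6.62 (log2 -2.72, adjusted p = 1.73e-17), and under CITCO, where no test is given, the value was -2.86. These are large counts, with 4375 to 37356 reads per library (inferred from the value of 1 read).

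CCL2, the chemokine for monocytes, was at 6.27 and 5.54 CPM in WT and at 2.02 and 2.15 CPM in KO cells under DMSO. WT libraries ranged from 5.11 to 6.27 CPM over all treatments and KO libraries from 2.02 to 2.58, so the genotypes did not overlap. KO cells had 2.83-fold less under DMSO (log2 -1.31, SE 0.13, adjusted p = 6.97e-08), 2.49-fold less under PB (-1.16, adjusted p = 3.21e-07) and 2.19-fold less under CITCO (-0.99, adjusted p = 2.30e-06).

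CXCL2, a neutrophil attractant that acts through CXCR2, was at 28.1 and 31.4 CPM in WT and at 16.5 and 18.2 CPM in KO cells under DMSO (log2 -0.76, SE 0.08, adjusted p = 1.35e-07). Under PB the means were 26.5 ± 0.656 and 12.6 ± 0.0567 CPM (SD, n = 2; log2 -1.05, adjusted p = 1.65e-09), and under CITCO 29.1 ± 1.19 and 18.1 ± 0.683 CPM (log2 -0.67, adjusted p = 7.47e-07). Its neighbour CXCL1, which acts through the same receptor, did not follow: both genotypes lay at 2.48 and 3.04 or 3.05 CPM under DMSO (log2 0.00, 95% interval -0.32 to 0.32). Under PB the difference of CXCL1 was 0.17 with no call (adjusted p = 0.369). Under CITCO, KO libraries at 3.01 and 2.51 CPM lay above WT libraries at 1.95 and 1.95, a higher level by 0.41 (SE 0.15, adjusted p = 0.0289). That call was lost without either WT CITCO library (adjusted p = 0.0897 and 0.0884) and without KO CITCO library 1 (0.201). CXCL1 and CXCL2 are related copies, and 4.81% of the 50-base words of CXCL1 transcripts and 12.5% of those of CXCL2 occur in a relative. Reads from those stretches cannot be assigned to 1 gene, so that part of the split between them is uncertain. None of the words of CXCL8, CXCL13 or CCL2 did.

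CXCL8, the interleukin 8 gene, had the steadiest level of the set. Its WT DMSO libraries were at 10.3 and 10.02 CPM and its KO DMSO libraries at 10.8 and 10.6 CPM. Over all treatments WT libraries ranged from 9.07 to 10.3 CPM and KO libraries from 10.02 to 11.8, which overlap. In the fit of all 12 libraries none of the 9 comparisons called it. With total scaling it was called higher in KO cells in all 3 treatments (log2 0.32, adjusted p = 0.00843 under DMSO, 0.43 under PB and 0.42 under CITCO). The KO minus WT difference under CITCO was also called without KO CITCO library 1 (0.29, adjusted p = 0.0471).

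IL6 was close to undetected in WT cells and low but countable in KO cells. WT libraries held 4 and 5 reads under DMSO, 15 and 15 under PB, and 1 and 6 under CITCO. KO libraries held 96 and 86, 113 and 127, and 70 and 91 reads in the same order. The read numbers of both genotypes were inferred from an estimated value of 1 read in each library. In normalized CPM the WT libraries ranged from 0.0181 to 0.268 and the KO libraries from 1.14 to 1.86, with no overlap. The ratio of KO to WT, as summed reads divided by the effective library size (with the authors' normalization factors), was 14.2 under DMSO (exact 95% interval 7.30 to 31.5), 6.74 under PB (4.60 to 10.2) and 21.2 under CITCO (10.1 to 53.6), where the intervals cover counting error only. Under CITCO the ratio was 12.9 (5.80 to 35.7) without WT CITCO library 1 and 70.9 (12.6 to 2819) without WT CITCO library 2. IL6 passed the filter on low values through its KO libraries alone, so a difference between the genotypes was built into its entry, although a fit with no filter also called it in all 3 treatments. The limma differences, which the pseudocount compresses, were 1.66 (SE 0.19, adjusted p = 4.93e-07), 1.56 (adjusted p = 9.65e-07) and 1.67 (adjusted p = 4.46e-07). IL6 overlaps AC073072.1 and STEAP1B on the other strand, and without strand information reads from them cannot be told apart.

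ICAM1, which binds leukocyte integrins, was at 40.5 and 39.8 CPM in WT and at 50.5 and 48.2 CPM in KO cells under DMSO. All KO libraries, from 41.5 to 54.3 CPM, lay above all WT libraries, from 33.8 to 40.5. The difference was 0.30 under DMSO (SE 0.05, adjusted p = 0.000130) and 0.65 under PB (adjusted p = 7.95e-09). Under CITCO it was 0.10 and not called in the deposited scaling (95% interval -0.02 to 0.21, adjusted p = 0.136), whereas total scaling gave 0.35 (adjusted p = 1.85e-05). ICAM1 overlaps AC011511.2 and AC011511.5 on the other strand, so the same limit of unknown strand applies.

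The 3 feedback inhibitors did not move together. SOCS3 was at 13.5 and 13.8 CPM in WT and at 18.2 and 18.1 CPM in KO cells under DMSO, and all KO libraries (17.6 to 21.2 CPM) lay above all WT libraries (10.2 to 13.8 CPM). Its difference was 0.40 under DMSO (SE 0.09, adjusted p = 0.00139), 0.76 under PB (adjusted p = 1.43e-06) and 0.70 under CITCO (adjusted p = 4.43e-06). NFKBIA, at 65.0 and 64.4 CPM in WT and at 57.3 and 56.8 CPM in KO cells under DMSO, was lower in KO cells by a small amount (log2 -0.18, SE 0.05, adjusted p = 0.00591), and with total scaling the sign turned (0.08, adjusted p = 0.156). Under PB NFKBIA differed by -0.12 (adjusted p = 0.0460) and with total scaling by 0.13 (adjusted p = 0.0384), and under CITCO by -0.20 (adjusted p = 0.00269) and with total scaling by 0.05 (adjusted p = 0.389). The direction for NFKBIA therefore depends on the scaling. The PB call of NFKBIA in the deposited scaling was also lost without WT PB library 2 (adjusted p = 0.344), KO PB library 1 (0.121) or KO PB library 2 (0.151).

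TNFAIP3 was at 18.9 and 22.6 CPM in WT and at 25.4 and 22.6 CPM in KO cells under DMSO, and its differences were 0.21 under DMSO (adjusted p = 0.0505) and 0.20 under PB (adjusted p = 0.0627), neither of them called. Under CITCO its difference was 0.29 and called (SE 0.09, adjusted p = 0.00892), which was lost without WT CITCO library 2 (0.0502) or KO CITCO library 1 (0.110). The DMSO value was called without WT DMSO library 2 (adjusted p = 0.00565) or KO DMSO library 2 (0.0325), and in all 3 treatments with total scaling. TNFAIP3 overlaps AL357060.1 on the other strand.

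**Figure D2:**
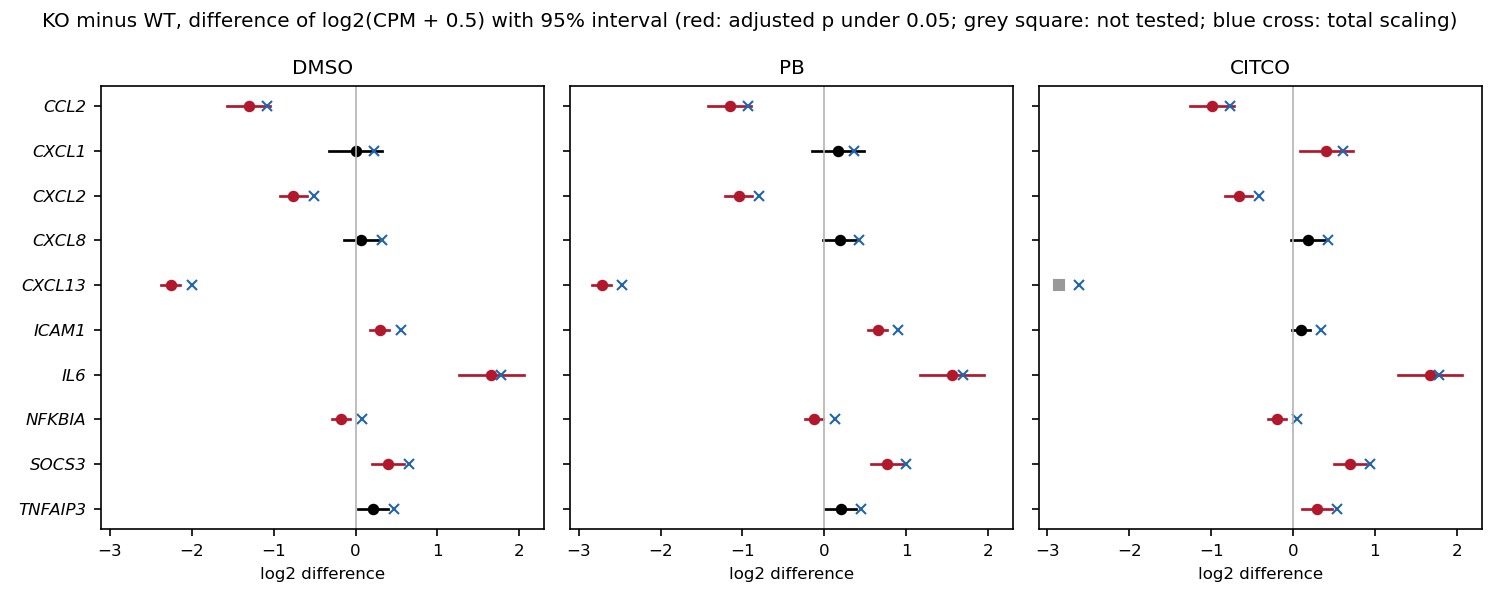
KO minus WT difference of log2(CPM + 0.5) for each gene (horizontal axis) under DMSO, PB and CITCO, with 95% intervals; red points passed the adjusted p of 0.05, the grey square is CXCL13 under CITCO, which was not tested, and blue crosses are the same differences with each library scaled to its total. The crosses sit to the right of the points for every gene, and NFKBIA is the gene whose called difference changes sign (from -0.18 to 0.08 under DMSO).

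Under PB the genotypes differed in 3 of 10 genes that were higher in KO cells and 4 that were lower, with 29.4% of all loci higher and 28.9% lower. They were the same genes as under DMSO. Total scaling gave 7 higher and 3 lower, and the percentage of calls that were higher over all loci went from 50.4 to 77.4. Under CITCO, over the 9 genes without CXCL13, 4 were higher (CXCL1, IL6, SOCS3 and TNFAIP3) and 3 lower (CCL2, CXCL2 and NFKBIA), with 29.3% of all loci higher and 29.8% lower. Total scaling gave 6 higher and 2 lower of the 9, and 76.3% instead of 49.6% of all calls were higher. In each of these counts IL6 had passed the filter on low values through its KO libraries alone. The comparisons within the 3 treatments use different libraries.

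The second question was whether PB or CITCO moves these genes, and the answer in WT cells was limited to a few. PB changed 3 of the 10 genes in WT cells. CXCL13 was higher, and ICAM1 and SOCS3 were lower, while 2.66% of all loci were higher and 3.76% lower. CXCL13 was chosen for a CITCO pattern that uses the same WT DMSO libraries. The calls apart from that choice are ICAM1 and SOCS3. The count fell to 1 gene, CXCL13, when the compared libraries were fitted alone, with edgeR or DESeq2 on whole reads, or without WT DMSO library 1. The median difference of the 10 genes was -0.10, against -0.00 over all loci.

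CXCL13 rose with PB from 418 and 377 CPM to 626 and 577 CPM in WT cells. Both PB libraries were above both DMSO libraries, a ratio of means of 1.51 (log2 0.60, SE 0.05, adjusted p = 5.98e-07). The comparison shares its DMSO libraries with the CITCO pattern for which the gene was chosen. Without any test, CITCO libraries of WT cells held 557 and 541 CPM, a difference of 0.47 from DMSO. In KO cells PB libraries held 90.4 and 91.4 CPM against 82.0 and 83.3 under DMSO, a difference of 0.14 that was not called (95% interval 0.02 to 0.25, adjusted p = 0.161). KO CITCO libraries held 71.5 and 78.7 CPM, lower than both DMSO libraries, and the difference was -0.14.

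The PB response of CXCL13 was smaller in KO than in WT cells by 0.46 on the log2 scale. The difference of the PB responses was -0.46 (SE 0.08, adjusted p = 0.00369), and for the CITCO responses, with no test, -0.61. Both use the same DMSO libraries of both genotypes, and the gene was chosen for its CITCO pattern. The authors' deposited table whose values match this difference gives -0.46 with an FDR of 0.00338. Over all loci 0.798% were called with a higher and 0.209% with a lower difference of the PB responses. With a constant prior variance the CXCL13 difference was no longer called (adjusted p = 0.163).

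The PB response of ICAM1 also differed between the genotypes. In WT cells the gene fell from 40.5 and 39.8 CPM to 33.8 and 34.0 CPM (log2 -0.24, SE 0.05, adjusted p = 0.00956). In KO cells it went from 50.5 and 48.2 to 54.3 and 52.7 CPM, a difference of 0.11 that was not called (adjusted p = 0.275). The difference of the PB responses was 0.35 (SE 0.08, adjusted p = 0.0281). That call was lost in fits that left out any of 6 libraries in turn, with adjusted p from 0.0539 without WT PB library 1 to 0.184 without KO PB library 1. The other libraries were WT DMSO library 1 (0.0700), WT PB library 2 (0.0582), KO DMSO library 2 (0.143) and KO PB library 2 (0.106), and a constant prior variance (0.122) or the compared libraries alone (0.0939) also ended it. The call of the fall in WT cells was lost with the compared libraries alone (0.153), with edgeR on whole reads (0.0659) and with DESeq2 (0.0590). Both count tools were run on WT libraries only. That call was also lost without WT DMSO library 1, where the difference was -0.23. The authors' deposited table gives the fall in WT cells as -0.24 with an FDR of 0.00485. Their table whose values match the difference of the PB responses gives 0.36 with an FDR of 0.00666.

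CITCO gave no call for ICAM1 in either genotype in the fit of all 12 libraries. In WT cells the libraries at 39.2 and 39.2 CPM were near the DMSO level (log2 -0.03, adjusted p = 0.7999). In KO cells they were at 42.4 and 41.5 CPM, below both DMSO libraries, with a difference of -0.23 that missed the threshold (95% interval -0.35 to -0.12, adjusted p = 0.0511). It was called with a pseudocount of 2 (adjusted p = 0.0474), a minimum of 5 CPM (0.0413) or only the compared libraries (0.0434). The authors' deposited table gives -0.23 with an FDR of 0.0134 for that comparison. The difference of the CITCO responses of ICAM1 was -0.20 and not called (adjusted p = 0.295).

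SOCS3 fell with PB in WT cells, from 13.5 and 13.8 CPM to 10.2 and 11.5 CPM (log2 -0.32, SE 0.09, adjusted p = 0.0480), and this call had the highest adjusted p of those made for the 10 genes. It was lost without WT DMSO library 1 (0.107), WT DMSO library 2 (0.116) or WT PB library 1 (0.246), with edgeR (0.152), with DESeq2 (0.201), with the compared libraries alone (0.186), with a constant prior variance (0.112) and with a pseudocount of 2 (0.0544). The authors' deposited table gives SOCS3 -0.33 with an FDR of 0.0236 for PB in WT cells. In KO cells PB libraries were at 19.9 and 17.6 CPM, on both sides of the DMSO libraries (0.04, adjusted p = 0.883). The difference of the PB responses was 0.36 and not called (95% interval 0.08 to 0.64, adjusted p = 0.339).

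PB lowered CXCL2 in KO cells, the 1 gene of the 10 that was called in that comparison, while 3.87% of all loci were higher and 3.09% lower. None of the 10 was higher by limma, and 3 of the 10 had an unadjusted p under 0.05, as did 18.0% of all loci. CXCL2 fell from 16.5 and 18.2 CPM to 12.6 and 12.6 CPM, 1.38-fold (log2 -0.44, SE 0.08, adjusted p = 0.00103). In WT cells the PB libraries at 26.1 and 27.0 CPM were also below the DMSO libraries at 28.1 and 31.4, but the difference was -0.16 and not called (95% interval -0.32 to 0.00, adjusted p = 0.274). The difference of the PB responses of CXCL2 was -0.28 (adjusted p = 0.377), so the responses were not shown to differ between the genotypes. The fall in KO cells was called in every alternative fit that was run for it.

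CITCO called none of the 9 tested genes in either genotype with limma in the fit of all 12 libraries. In WT cells 2.20% of all loci were called, and 3 of the 9 genes and 16.3% of all loci had an unadjusted p under 0.05, with 0 calls among the 9 by edgeR and 0 by DESeq2. In KO cells 0.811% of all loci were called, and 2 of the 9 genes and 11.04% of all loci had an unadjusted p under 0.05. For the difference of the CITCO responses 0.336% of all loci and 0 of the 9 genes were called by limma, and 12.6% of all loci and 2 of the 9 had an unadjusted p under 0.05. The intervals set how large an effect could have been missed: for NFKBIA in WT cells the difference was -0.12 (95% interval -0.23 to -0.02), for TNFAIP3 -0.19 (-0.38 to -0.00), and for CXCL8 -0.09 (-0.30 to 0.11). They were wider for the low genes: -0.73 to -0.08 for CXCL1, -0.49 to 0.29 for IL6 and -0.37 to 0.16 for CCL2.

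CXCL1 had lower values in WT cells with both drugs. Its PB libraries were at 1.96 and 2.04 CPM and its CITCO libraries at 1.95 and 1.95, below DMSO libraries at 2.48 and 3.04. Neither difference was called (log2 -0.38, adjusted p = 0.177 for PB, and -0.41, adjusted p = 0.194 for CITCO), and both use the same DMSO libraries. The authors' deposited table gives CXCL1 a log2 fold change of -0.47 with PB in WT cells at an FDR of 0.0446, and -0.50 with CITCO at an FDR of 0.0504.

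IL6 had 30 reads in the WT PB libraries together and 9 in the WT DMSO libraries, and the difference of 0.35 was not called (95% interval -0.04 to 0.74, adjusted p = 0.333). In KO cells the PB difference of IL6 was 0.25 (-0.14 to 0.64). CCL2, CXCL8, NFKBIA and TNFAIP3 were also without a call for PB in either genotype. For NFKBIA the PB difference in KO cells was -0.00 (95% interval -0.11 to 0.11), and for CXCL8 it was -0.00 (-0.21 to 0.21).

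**Figure D3:**
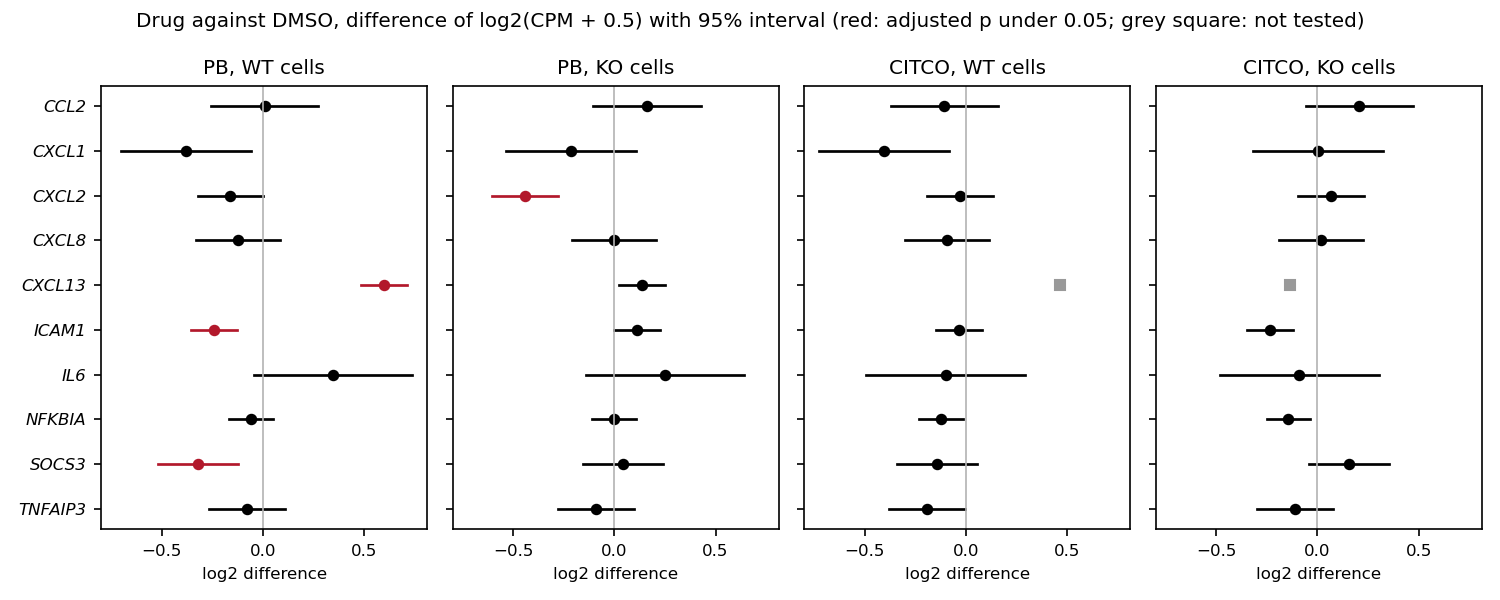
Drug minus DMSO difference of log2(CPM + 0.5) for each gene (horizontal axis), for PB and CITCO in WT and KO cells, with 95% intervals; red points passed the adjusted p of 0.05 and grey squares are CXCL13 under CITCO, which was not tested. CXCL13 rises with PB in WT cells by 0.60, ICAM1 and SOCS3 lie to the left there (-0.24 and -0.32), and CXCL2 is the red point in KO cells (-0.44).

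The order of the group means is described here with the neighbours whose libraries overlapped. With 2 libraries per group, no overlap does not show that groups differ, and no share over all loci is given. ICAM1 did not overlap between WT DMSO and WT CITCO, yet that difference was not called (limma, adjusted p = 0.7999). The CXCL13 order includes the CITCO groups for which the gene was chosen. For CXCL13 the order from the highest was WT PB, WT CITCO, WT DMSO, KO PB, KO DMSO and KO CITCO, and no neighbouring groups in it overlapped. For ICAM1 it was KO PB, KO DMSO, KO CITCO, WT DMSO, WT CITCO and WT PB, also with no overlap between neighbours. For CCL2 the 3 WT groups overlapped each other, and in KO cells the CITCO and PB groups overlapped while both DMSO libraries were lower. CXCL2 was lowest with PB in both genotypes, and its DMSO and CITCO groups overlapped in each. For SOCS3 the order was KO CITCO, KO PB, KO DMSO, WT DMSO, WT CITCO and WT PB, where the KO groups overlapped their neighbours and so did WT CITCO and WT PB. NFKBIA was lowest with CITCO in both genotypes, and its DMSO and PB groups overlapped in each. For IL6 both PB groups were the highest of their genotype, and the DMSO and CITCO groups overlapped. For CXCL8 and TNFAIP3 the 3 KO means were above the 3 WT means, but single libraries overlapped, and for CXCL1 the order of the means mixed the genotypes.

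Genes with a pattern over the 6 group means most like a member were found by the root mean square difference of centred log2 profiles among 15791 other loci. For CXCL8 the nearest were TMA16 (0.0161), LINC01355 (0.0162) and DERL1 (0.0162). For NFKBIA they were APOC3 (0.0210), an apolipoprotein gene, RP11-329A14.1 (0.0231) and ANKRD6 (0.0239). For CXCL13 the nearest were LINC01085 (0.182), ACADS (0.189), a dehydrogenase of short fatty acids, and TRAM1L1 (0.192), which is listed at 0 in every KO library. The measure is not scaled for range. The highest group mean was 8.01 times the lowest for CXCL13, 1.17 for CXCL8 and 1.25 for NFKBIA, so values cannot be compared between these genes. The CXCL13 profile includes the CITCO means for which it was chosen.

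The other genes of the pathway were read from lists, whose counts under DMSO stand beside 28.3% of all loci higher and 29.4% lower. Among NF-kB subunits, kinases and regulators, KO cells under DMSO had 10 of 22 genes higher and 5 lower (median 0.12, against -0.00 over all loci), and with total scaling 16 higher and 3 lower. BIRC3, a ubiquitin ligase that NF-kB induces, was higher by 1.08, from 92.4 to 196 CPM. IKBKB, the kinase that marks IκBα for destruction, was lower by 0.98 (log2 -0.98), from 30.9 to 15.3 CPM, and TNIP3, a partner of A20, differed by -1.39. Of 20 receptors and adaptors upstream of NF-kB, 11 were higher and 3 lower (median 0.25; 15 and 1 with total scaling), among them LY96 (1.26) and TLR2 (1.07), which sense bacterial products, and IL1RAP (0.84), a chain of the interleukin 1 receptor.

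Other ligands held both directions. Of 7 cytokine ligands, 2 were higher and 4 lower in KO cells under DMSO (median -0.47; 3 and 4 with total scaling). TNFSF14 differed by -2.02, IL18 by -1.41 and IL15 by -0.73. Of 8 other chemokines, 1 was higher, CCL28 (1.501), and 3 lower (median -0.04; 2 and 2 with total scaling, where the median was 0.19), with CXCL10 at -2.01, from 5.98 to 1.11 CPM, and CX3CL1 at -0.86. The 10 genes hold both directions as well, with CCL2, CXCL2 and CXCL13 lower and IL6 higher.

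Of 3 chemokine receptors tested, 1 was higher in KO cells: ACKR3, a scavenging receptor, by 1.03 (2 with total scaling). CXCR5, the receptor of CXCL13, was at 15.0 to 19.2 CPM in WT and 15.6 to 18.2 CPM in KO libraries. Of 19 genes of the IL6, JAK and STAT3 axis, 11 were higher and 4 lower (median 0.33; 17 and 2 with total scaling), among them SOCS2 (1.11), OSMR (1.08), the oncostatin M receptor, and STAT5A (1.03). The IL6 receptor chains differed from each other: IL6R was at 91.7 to 99.99 CPM in WT and 85.7 to 96.3 CPM in KO libraries, and IL6ST, the signalling chain, at 207 to 233 and 271 to 293. Of 7 adhesion genes and ICAM1 ligands, 3 were higher and 2 lower (median 0.15; 4 and 2 with total scaling), with ITGB2 (1.41) and ITGAL (0.93), the chains of the integrin that binds ICAM1, higher and ICAM3 at -0.72. ITGAL was low, at 0.357 to 1.12 CPM in WT and 1.02 to 1.90 CPM in KO libraries.

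**Figure D4:**
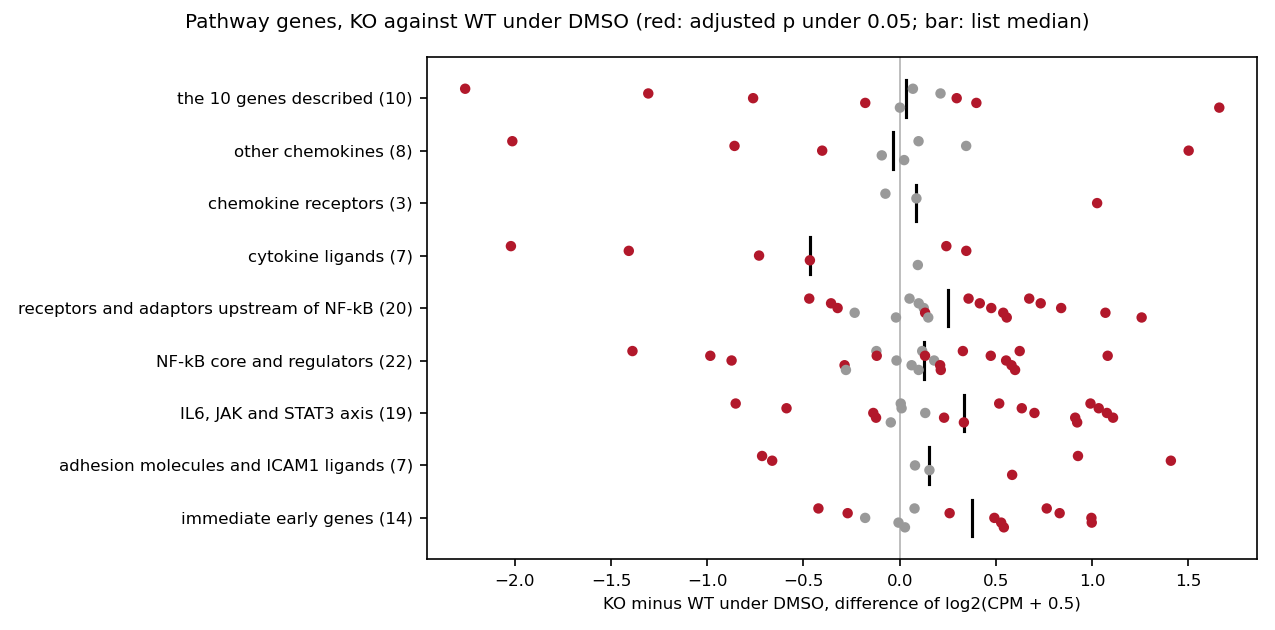
KO minus WT difference of log2(CPM + 0.5) under DMSO (horizontal axis) for the 10 genes and for 8 lists of pathway genes (rows, with the number of genes tested), each point a gene, red where the adjusted p was under 0.05, with a bar at the list median. Points of every list but that of the chemokine receptors are called on both sides of 0; the medians run from -0.47 for cytokine ligands to 0.38 for immediate early genes.

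Genotype differences in the lists were also counted under the drugs, where KO cells had 29.4% of all loci up and 28.9% down under PB, and 29.3% up and 29.8% down under CITCO. Of the 22 NF-kB regulators 11 were higher and 5 lower in KO cells under PB (15 and 3 with total scaling) and 11 and 5 under CITCO (16 and 4). Of the 19 genes of the IL6, JAK and STAT3 axis 11 were higher and 5 lower under PB (14 and 2 with total scaling), and 11 and 2 under CITCO (16 and 2).

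Over the 8 pathway lists, immediate early genes included, PB called 11 of 100 genes in WT cells, beside 6.42% of all loci, and 12 of 100 in KO cells, beside 6.96%. CITCO called 4 of 100 in WT cells, beside 2.20%, and 1 of 100 in KO cells, beside 0.811%. The medians of the 8 lists ran from -0.25 to 0.10 for PB in WT cells and from -0.38 to 0.21 in KO cells, with both extremes in lists of 3 to 8 genes. For CITCO they ran from -0.07 to 0.05 in WT and from -0.17 to 0.01 in KO cells. With PB in WT cells, 1 of the 22 NF-kB regulators was called, BIRC3, which was lower (-0.36), and of the 20 receptors and adaptors CD14 was higher (0.86) and TLR4 lower (-0.51). STAT3 (-0.18), IL18 (-0.26) and ACKR2 (-0.39) were the single calls of their lists, and ITGAM (0.78) that of the adhesion list. With PB in KO cells, CD14 (1.38), IRAK2 (0.38), TNFSF10 (0.31) and ITGAM (0.71) were higher. IL18 (-0.30), CX3CL1 (-0.34), STAT3 (-0.13), IL6R (-0.15) and ITGB2 (-0.32) were lower there. BIRC3 was the 1 gene of 100 in the 8 pathway lists with a called difference of the PB responses (0.31, adjusted p = 0.0248 by limma), beside 1.01% of all loci. Its difference was higher, as were those of 0.798% of all loci, while 0.209% were called lower. With CITCO in WT cells CXCL10 (-0.66) and BIRC2 (-0.22) were lower and IKBKG (0.33), which has a near-identical pseudogene, and CD14 (0.50) higher, and in KO cells IL32 (-0.18) was lower.

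Markers of cell types and of early stress were also counted, beside 28.3% of all loci higher and 29.4% lower in KO cells under DMSO. Under DMSO 7 of 9 hepatocyte markers were lower in KO cells and 1 higher (6 and 2 with total scaling), with ALB at -1.55, and their summed level was 141311 to 159084 CPM in WT and 58708 to 61753 CPM in KO libraries. Of 5 biliary markers 3 were lower and 2 higher, with KRT19 at -2.27 (3 and 2 also with total scaling; sums of 528 to 629 and 228 to 254 CPM). They went both ways under PB too: KRT7 (1.04) and SPP1 (0.82) were higher, KRT19 (-2.47), SOX9 (-0.91) and ANXA4 (-0.28) lower. Under DMSO, 4 of 6 stellate and fibroblast markers were higher and 1 lower, with DCN at 1.95 (5 and 0 with total scaling; 117 to 123 and 233 to 255 CPM). Of 3 endothelial markers 1 was higher and 1 lower (1 and 0 with total scaling). No leukocyte marker of 10 was analysed here. Immediate early genes, which respond to handling and stress, were higher in 8 and lower in 2 of 14 (267 to 333 CPM in WT and 354 to 415 CPM in KO libraries; 11 and 0 with total scaling), led by FOSL1 (1.00), JUN (1.00) and EGR2 (0.83). The part of these markers in the genotype differences of the 10 genes was not tested. With PB, 4 of 14 immediate early genes were lower in WT cells, EGR2 (-0.65) and FOS (-0.47) among them, beside 3.76% of all loci. In KO cells 3 of 14 were lower, EGR1 (-0.42) and JUN (-0.29) among them, beside 3.09% of all loci. The part of immediate early genes in the PB differences was not tested.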

How the data were processed

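RNA sequencing of 12 HepaRG libraries was analysed. Per the submitters' processing notes, which give neither role nor order, the tools were edgeR 2.12, TopHat2 2.0.10, Cuffdiff 2.1.1, Bowtie 1.0.0 and Cufflinks 2.1.1, and the builds GRCh38 and GRCh37. The authors deposited a normalized signal named CPM for 15822 loci. It is not plain CPM, since WT libraries sum to 1.07 to 1.11 and KO libraries to 0.900 to 0.935 times 1e6. The authors' deposited comparison tables hold log2 fold changes, likelihood ratio scores, p-values and FDR, and those named KO against WT under a drug hold values close to the differences of responses. Members, gene lists and tests were chosen with earlier results of these data known.

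Loci that reached 1 CPM in 2 or more libraries entered limma 3.58.1 (R 4.3.3) on log2(CPM + 0.5), with a trend and 6 group means in 1 fit, which leaves 6 residual degrees of freedom. There were 9 comparisons: each drug against DMSO in each genotype, KO against WT in each treatment, and the differences of the PB and the CITCO responses. All values were whole multiples of 1 read within 0.001 reads (100%), where the value of 1 read was estimated in the same way in every library. edgeR 4.0.16 and DESeq2 1.42.0 were run on those whole reads for WT libraries. Alternatives were other pseudocounts, filters, scaling to totals, a constant prior variance, a replicate block, fits of only the libraries compared, and leaving out each library. Named were all 10 genes and, per list, at most 3 called genes with the largest difference per genotype comparison and 2 per drug comparison. Exon lengths are from GENCODE release 29 and promoters from RefSeq. The number of columns of per-sample values that were not used was 0.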

Additional observations from a re-analysis of the deposited data

Results flagged for a closer look

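The PB response of CXCL13 differed between the genotypes in the test of the difference itself: -0.46 on the log2 scale (KO minus WT response; adjusted p = 0.00369, limma). PB libraries of WT cells were both above their DMSO libraries by a mean of 0.60, and those of KO cells both above theirs by 0.14. The difference uses the same DMSO libraries of both genotypes as the CITCO pattern for which CXCL13 was chosen. The PB response of ICAM1 also differed between the genotypes, by 0.35 (adjusted p = 0.0281, limma). Both PB libraries were below both DMSO libraries in WT cells (-0.24) and above them in KO cells (0.11). By limma the ICAM1 call was lost with a constant prior variance (adjusted p = 0.122) and with only the compared libraries (0.0939). It was also lost in several fits without 1 library. A constant prior variance ended the CXCL13 call as well (limma, adjusted p = 0.163).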

How the results depend on the processing

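Of 706 single-gene fits under other settings, 676 stayed on their side of the threshold, 15 lost a call and 12 gained one. The other 3 turned sign in a difference called in the main fit or the other fit. A sign change of a difference called in neither fit was not counted. In 420 fits without one library, which leave 1 library in a group, 0 turned sign in that way, while several calls changed. The 3 counted reversals were NFKBIA in KO against WT with total scaling, at 0.084 (DMSO), 0.126 (PB) and 0.051 (CITCO). The 3 genes called for PB in WT cells became 1 when only the compared libraries were fitted, 1 with edgeR and 1 with DESeq2, and 1 to 3 without one library. The 0 genes called for CITCO in KO cells became 1, ICAM1, with a pseudocount of 2 (adjusted p = 0.0474), a minimum of 5 CPM (0.0413) or only the libraries compared (0.0434). The 2 genes with a called difference of the PB responses became 0 with a constant prior variance, 1 with only the libraries compared and 1 to 2 without one library. The cause was not tested.

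Replicate numbers were not treated as pairs: deviations of same-numbered libraries correlated with r from -0.08 to 0.29 (WT DMSO with WT PB) over 15 pairs of groups, 4 of them above 0.1. The replicate block changed 2 of 86 calls, SOCS3 with PB in WT cells (adjusted p = 0.0551) and NFKBIA in KO against WT under PB (0.0556), and left the count of genes called for PB in WT cells at 2.

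Count models were not run for KO libraries. IL6 and CXCL1 left the table under a minimum of 5 CPM. IL6 also left it in limma fits of only the compared WT libraries, but stayed in the edgeR and DESeq2 fits. Counts of 1 to 15 reads limit IL6 in WT cells.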
